A study of Mus musculus with 9 samples.

Results

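Chemokines are small secreted proteins that steer moving cells, and their genes, with those of their receptors, are described here in myoblasts, which are muscle precursors that still divide, from mouse. Members were all genes whose symbol begins with Ccl, Cxcl, Cx3cl, Xcl, Ccr, Cxcr or Ackr followed by a digit, read from probe sets that carry a single gene symbol. The rule found 54 probe sets for 53 of the 19661 genes tested, and each gene was read from its brightest probe set, by the mean of the 9 arrays. They comprised 18 Ccl, 13 Cxcl, 1 Cx3cl and 1 Xcl ligand genes, 10 Ccr and 6 Cxcr receptor genes, and 4 Ackr genes for atypical receptors. Myoblasts of Balb/c background from skeletal muscle formed 3 groups of 3 arrays: cells overexpressing Pax3, cells overexpressing Pax7, and cells with an empty vector, the control. The medium was F10 for every group, supplemented with fetal bovine serum (20%) and bFGF (4 ng/ml). Neither the promoter of the constructs nor whether a group is 1 clone or a mixed population is stated in the labels.

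As background, a chemokine binds a receptor with a bundle of membrane-spanning helices, which signals through inhibitory G proteins, while arrestins and receptor kinases switch the signal off. Atypical receptors bind chemokines without that G protein signal and mostly remove them from the surroundings. In muscle, Cxcl12 and its receptor Cxcr4 are known for guiding migrating muscle precursors, and Ccl2 and its relatives for calling monocytes into injured tissue. Many inflammatory chemokine genes are switched on by NF-kappaB and by interferons.

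The promoter windows of 4 members are shown because these genes carry the largest fall (Cxcl13), the Cxcl12 ligand and receptor pair, and a ligand with an NF-kappaB type match that differed between Pax7 and Pax3 arrays (Cxcl10). Each runs 5′ to 3′ on the gene's strand, from 250 bases before to 50 bases after the start that RefSeq gives on build GRCm38.p6. The windows lie at chr5:95956689-95956988 on the plus strand (Cxcl13), chr6:117168285-117168584 on the plus strand (Cxcl12), chr1:128592250-128592549 on the minus strand (Cxcr4) and chr5:92348840-92349139 on the minus strand (Cxcl10). Capitals mark matches, on either strand, to TAAT (the core bound by homeodomains, which Pax3 and Pax7 carry), to TATAAA and to GGGA and TTCC separated by any 2 bases (an NF-kappaB type site).
Cxcl13: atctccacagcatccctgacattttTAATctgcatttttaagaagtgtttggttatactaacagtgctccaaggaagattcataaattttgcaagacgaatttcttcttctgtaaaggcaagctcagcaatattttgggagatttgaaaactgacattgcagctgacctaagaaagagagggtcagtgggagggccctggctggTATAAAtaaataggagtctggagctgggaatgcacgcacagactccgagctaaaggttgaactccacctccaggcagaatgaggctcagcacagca
Cxcl12: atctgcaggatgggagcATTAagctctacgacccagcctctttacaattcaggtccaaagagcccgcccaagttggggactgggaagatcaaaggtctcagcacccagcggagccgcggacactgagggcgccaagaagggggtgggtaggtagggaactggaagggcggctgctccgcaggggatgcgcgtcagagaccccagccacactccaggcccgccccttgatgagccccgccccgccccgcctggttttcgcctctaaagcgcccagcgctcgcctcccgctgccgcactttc
Cxcr4: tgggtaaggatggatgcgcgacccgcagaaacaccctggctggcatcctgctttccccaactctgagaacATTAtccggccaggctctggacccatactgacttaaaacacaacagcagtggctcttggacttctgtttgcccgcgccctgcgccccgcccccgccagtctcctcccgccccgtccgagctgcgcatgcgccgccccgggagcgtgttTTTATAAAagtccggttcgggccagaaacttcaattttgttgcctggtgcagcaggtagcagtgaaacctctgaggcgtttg
Cxcl10: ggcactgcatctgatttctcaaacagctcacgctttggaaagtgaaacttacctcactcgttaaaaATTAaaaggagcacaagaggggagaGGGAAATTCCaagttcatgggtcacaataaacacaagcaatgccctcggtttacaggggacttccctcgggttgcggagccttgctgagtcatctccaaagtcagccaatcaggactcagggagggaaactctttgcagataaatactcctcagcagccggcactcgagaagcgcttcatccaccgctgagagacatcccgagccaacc

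In these windows the matches of different motifs overlapped 0 times. TAAT was found in all 4 windows, in 28 of 41 windows of the members and in 58% of 32851 RefSeq windows of the same length. Counted from the start, TATAAA began at base -46 in Cxcl13 and, on opposite strands, at bases -32 and -30 in Cxcr4, was not found in the Cxcl12 and Cxcl10 windows, and was found in 13 of 41 member windows and in 13.6% of all windows. The NF-kappaB type site was found in the windows of 6 members (Cxcl1, Cxcl2, Cxcl3, Cxcl10, Ccl1 and Ccr3), against 1.47% of all windows. TAAT and ATTA separated by 2 bases or by 3 bases, the paired homeodomain forms, were found in 0 of 41 member windows and in 0.39% and 0.487% of all windows. Windows were listed for 39 of the 53 members. A match is a description of the letters and was not tested as a binding site.

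Values were log2 intensities. Medians of the arrays lay between 6.397 and 6.477, and precision was limited by having 3 arrays per group. The labels do not say that arrays of a group hold RNA from separate cultures, so a p-value here covers the spread among arrays alone, which may be technical. Pax3 averaged 11.1 in Pax3 arrays and 6.82 in Pax7 arrays, against 5.83 in control arrays. Pax7 averaged 8.18 in Pax3 arrays and 12.28 in Pax7 arrays, against 10.5 in control arrays. Xist lay between 11.7 and 12.0 on all 6 Pax3 and Pax7 arrays, against 4.62 to 4.85 on control arrays, and the Y-linked gene Uty lay between 3.71 and 3.91, against 9.17 to 9.36. Every difference from control given for the members therefore came with this difference in sex-linked transcripts, and the factor and the sex of the cells cannot be told apart. The labels do not say whether the groups were made from cells of the same animal or clone, so any other difference between the cells of control and those of the overexpressing groups cannot be told apart from the factor either. All 8 myoblast markers lay in the upper 50% of genes, and Myod1 averaged 12.5 in Pax3 and 12.2 in Pax7 arrays, against 12.6 in control arrays. Of the 8, 1 rose, 6 fell and 1 did not pass with Pax3, and 2 rose and 6 fell with Pax7. Of all genes in the upper 50%, 61.7% passed the test with Pax3 and 65% with Pax7. Myf5 rose (1.97 with Pax3 and 2.02 with Pax7) and Myog fell (-1.30 and -2.43). The 8 include Pax7 itself, at -2.33 with Pax3 and 1.77 with Pax7, so these counts and the sum partly reflect an overexpressed factor. The summed log2 level of the 8 was 86.0 to 86.2 in Pax3 and 87.2 to 87.4 in Pax7 arrays, against 90.1 to 90.2 in control arrays. Of 11 leukocyte markers, Cd68 and Laptm5 rose in both comparisons against control, by 1.36 and 2.08 log2 units with Pax3 and by 2.04 and 1.48 with Pax7. The other 9, among them Ptprc, Adgre1, Itgam and Csf1r, did not pass the test. The share that passed was 18.2% in each comparison, beside 39.6% of all genes with Pax3 and 43.2% with Pax7. The summed log2 level of the 11 leukocyte markers was 60.5 to 61.5 in Pax3 arrays and 61.1 to 61.8 in Pax7 arrays, against 56.7 to 58.0 in control arrays. This sum largely follows Cd68 and Laptm5, since the other 9 changed by -0.10 to 0.13 with Pax3 and -0.04 to 0.16 with Pax7. Whether a marker was absent cannot be read, because the values hold no detection call and are never 0. Of 6 endothelial markers, Tek rose in both (0.38 with Pax3 and 0.74 with Pax7) and Cdh5 with Pax7 (0.18), and of 8 stromal markers Pdpn (1.51 and 1.73) and Pdgfra (0.42 and 0.58) rose and Cd34 (-0.65 and -0.78) fell. The shares that passed were 16.7% and 33.3% of the endothelial markers and 37.5% of the stromal markers in each comparison. All 6 endothelial and 6 of the 8 stromal markers lay in the lower 50%, where 17.5% and 21.3% of all genes passed. The summed endothelial level was 31.5 to 32.0 in Pax3 and 32.3 to 32.5 in Pax7 arrays, against 30.8 to 31.4 in control arrays, and the summed stromal level 48.5 to 50.1 and 48.6 to 49.7, against 47.1 to 47.7. Tek is part of the endothelial sum and Pdpn of the stromal sum, so each partly reflects a single gene. The part of leukocytes, endothelial and stromal cells in the chemokine values was not tested. In bulk RNA, fewer cells of a type and less RNA per cell cannot be told apart.

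Most chemokine and receptor genes did not pass the test against control, and those that did were led by falls in a few ligands. Of the 53 members, 4 rose, 10 fell and 39 did not pass in Pax3 arrays, and 6 rose, 8 fell and 39 did not pass in Pax7 arrays (limma adjusted p under 0.05 over all genes). With each array centred on its median, 2 rose (the calls of Cxcl10 and Ccl7 were lost, adjusted p = 0.0658 and 0.0693) and 10 fell with Pax3, and 5 rose and 8 fell with Pax7. The share called was 26.4% of the members in each comparison, against a background of 39.6% of all genes for Pax3 and 43.2% for Pax7. By direction, 19.8% of all genes rose and 19.7% fell with Pax3, and 21.6% rose and 21.5% fell with Pax7. The median log2 fold change over the members was 0.018 with Pax3 and 0.017 with Pax7, beside 0.016 and 0.027 over all genes. Both comparisons used the same control arrays. Side by side, 7 members were called lower in both (Cxcl13, Cxcl12, Ackr3, Ccl2, Ccl17, Cx3cl1 and Cxcl5), 2 were called higher in both (Ccl5 and Ccl20), and 1, Cxcr4, was called lower with Pax3 and higher with Pax7. The share of all genes called alike in both was not counted, so these joint counts have no background beside them. The 3 arrays of a group lay wholly above or below control for 15 members with Pax3 and 16 with Pax7, where 45.1% and 55.5% of all genes did so. A call with at least 1 log2 unit was made for 1 member with Pax3 (Cxcl13) and for 3 with Pax7 (Cxcl13, Cxcl12 and Ccl2), where 4.8% and 6.58% of all genes had one.

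**Figure D1:**
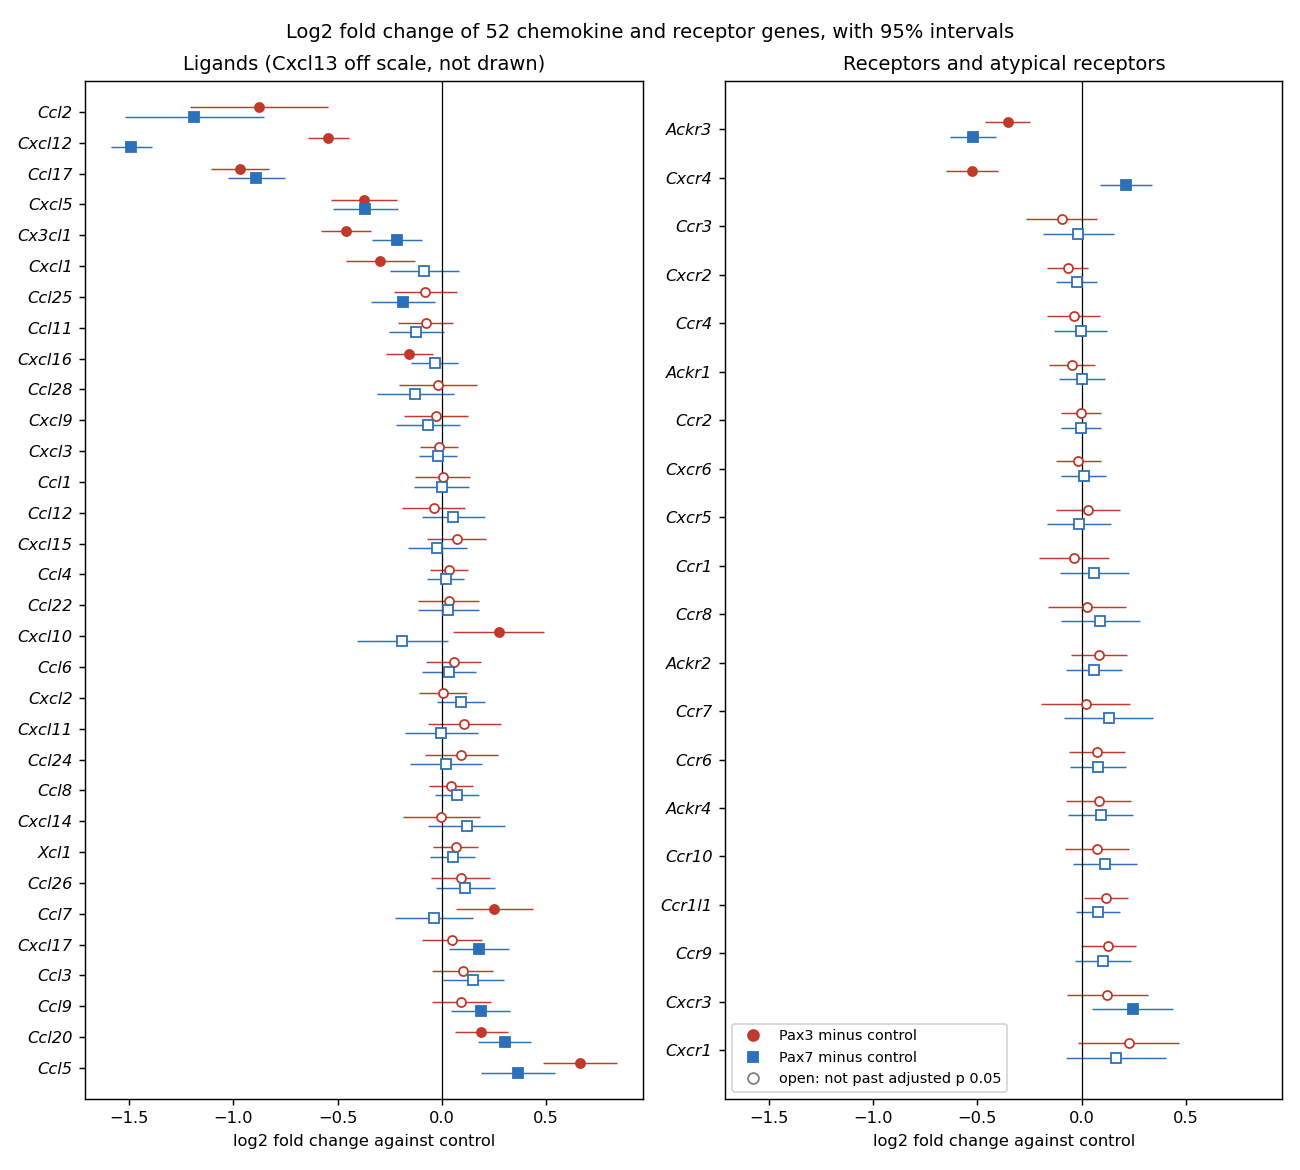
Log2 fold change against control of 52 members (horizontal axis, log2 units), with ligands on the left and receptors on the right; red circles are Pax3 minus control, blue squares Pax7 minus control, bars 95% intervals and open symbols genes not past adjusted p 0.05. Cxcl13, at -6.25 and -6.19, lies off the scale and is not drawn. Genes run from the most negative at the top, with Ccl2, Cxcl12 and Ccl17 first among the ligands and Ccl5 at the bottom. The Cxcr4 points lie on opposite sides of 0.

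Calls were more frequent among brighter genes. A total of 47 members lay in the lower 50% of all genes by mean log2 intensity over the 9 arrays and 6 in the upper 50% (Cxcr4, Cxcl12, Ackr3, Cx3cl1, Ccl25 and Cxcl1). In the lower 50%, 9 of the 47 members passed with Pax3 and 9 with Pax7, against 17.5% and 21.3% of all genes there. In the upper 50%, 5 of the 6 passed in each comparison, against 61.7% and 65% of all genes there. With Pax3, Cxcr4, Cxcl12, Ackr3, Cx3cl1 and Cxcl1 fell. With Pax7, Cxcl12, Ackr3, Cx3cl1 and Ccl25 fell and Cxcr4 rose. Between Pax7 and Pax3, 4 of the 6 and 3 of the 47 passed, against 26.4% and 7.33% of all genes.

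**Figure D2:**
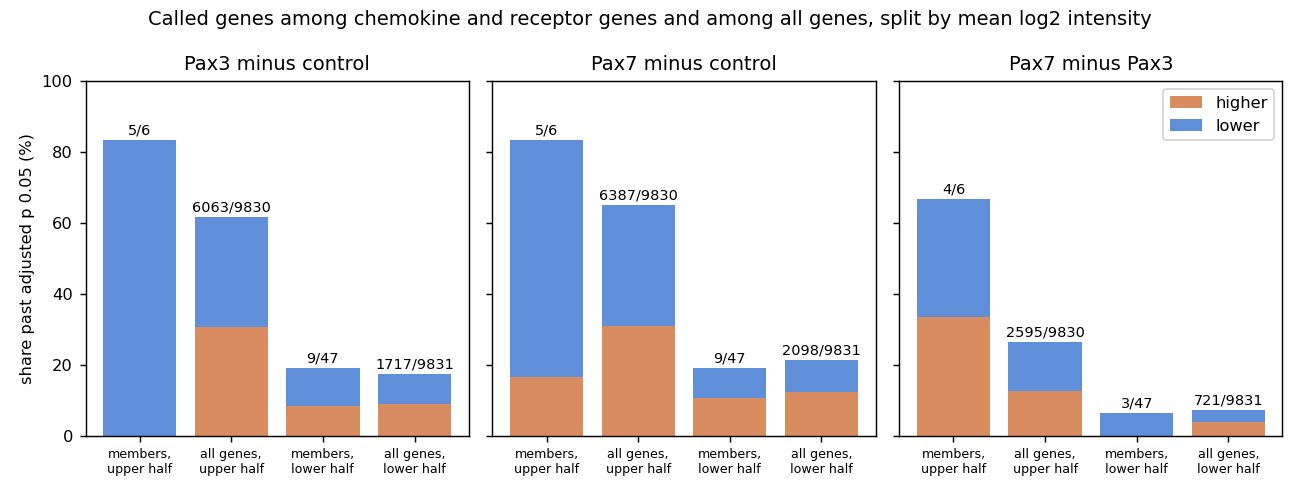
Share of genes past adjusted p 0.05 (vertical axis, %) in 3 comparisons, for members and for all genes, each split at the median of the mean log2 intensity; orange is higher, blue is lower in the first-named group, and the counts stand above the bars. In the lower 50% the members' shares lie close to those of all genes; the upper 50% holds 6 members.

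Cxcl13, a CXC ligand that attracts B cells through the receptor Cxcr5, had the largest difference in intensity of all members. Its log2 intensity was 4.27, 4.28 and 4.37 in Pax3 arrays and 4.31, 4.40 and 4.39 in Pax7 arrays, against 10.54, 10.64 and 10.49 in control arrays. All 6 Pax3 and Pax7 arrays lay far below all 3 control arrays. Its intensity was 76.1-fold lower with Pax3 (log2 fold change -6.25 ± 0.053, SE, n = 3 per group, limma adjusted p = 1.39e-13) and 73.1-fold lower with Pax7 (-6.19 ± 0.053, adjusted p = 1.53e-13). The 95% intervals were -6.37 to -6.13 and -6.31 to -6.07. These folds are estimates for the intensities, and the folds in RNA may be larger, since the low values were not shown to be above background. Of all genes, 12.7% had a lower mean in Pax3 arrays and 13.2% in Pax7 arrays, and Xist on control arrays read higher. In control arrays, 93.3% of genes had a lower mean. Between Pax7 and Pax3 arrays Cxcl13 differed by 0.06, with a 95% interval of -0.06 to 0.18. Its receptor gene Cxcr5 did not pass in either comparison, at 4.58, 4.29 and 4.46 in Pax3 arrays and 4.41, 4.31 and 4.48 in Pax7 arrays, against 4.41 on each control array.

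All 3 genes of the Cxcl12 system changed against control, and Cxcr4 changed in opposite directions with the factors. Cxcl12, the ligand of Cxcr4, stood at 7.89, 7.93 and 7.89 in Pax3 arrays and 6.98, 6.92 and 6.98 in Pax7 arrays, against 8.41, 8.41 and 8.52 in control arrays. The 3 groups did not overlap, with Pax7 arrays lowest. Cxcl12 was 1.46-fold lower with Pax3 (-0.54 ± 0.044, limma adjusted p = 2.06e-06) and 2.81-fold lower with Pax7 (-1.49 ± 0.044, adjusted p = 4.03e-10). Pax7 arrays were 1.93-fold lower than Pax3 arrays (-0.95 ± 0.044, adjusted p = 1.9e-07).

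Cxcr4, the signalling receptor for Cxcl12, stood at 7.97, 8.16 and 8.15 in Pax3 arrays and 8.84, 8.81 and 8.85 in Pax7 arrays, against 8.56, 8.62 and 8.68 in control arrays. Every Pax3 array lay below and every Pax7 array above all control arrays. It fell 1.44-fold with Pax3 (-0.53 ± 0.057, limma adjusted p = 2.01e-05) and rose 1.16-fold with Pax7 (0.21 ± 0.057, adjusted p = 0.0106). The difference itself was 1.67-fold, higher in Pax7 than in Pax3 arrays (0.74 ± 0.057, adjusted p = 6.84e-06). Ackr3, an atypical receptor that takes up Cxcl12, stood at 7.63, 7.75 and 7.69 in Pax3 arrays and 7.46, 7.59 and 7.54 in Pax7 arrays, against 8.08, 8.05 and 8.02 in control arrays. Both overexpressing groups lay below control, by 1.28-fold with Pax3 (-0.36 ± 0.049, adjusted p = 0.000136) and by 1.44-fold with Pax7 (-0.52 ± 0.049, adjusted p = 5.44e-06).

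**Figure D3:**
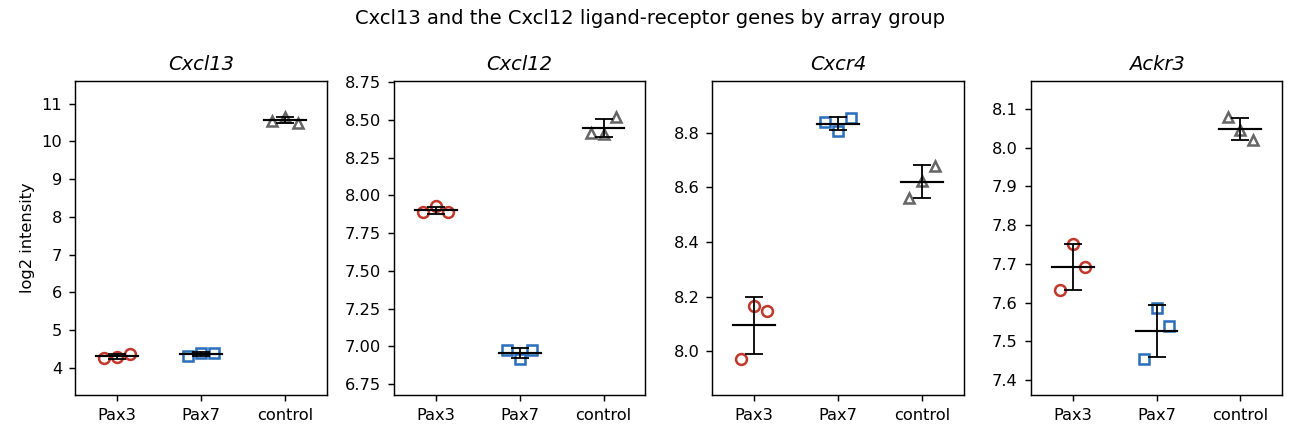
Log2 intensity (vertical axis, a separate range for each gene) of Cxcl13, Cxcl12, Cxcr4 and Ackr3 on each array; symbols are single arrays of the Pax3, Pax7 and control groups, horizontal lines group means and bars 1 SD (n = 3). Cxcl13 lies near 4.3 in both overexpressing groups and above 10.4 in control, and Cxcr4 lies lowest in Pax3 and highest in Pax7 arrays.

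Of the CC ligands that fell, Ccl2 and Ccl17 fell most. Ccl2, which attracts monocytes through Ccr2, stood at 6.30, 6.40 and 6.43 in Pax3 arrays and 6.13, 5.84 and 6.24 in Pax7 arrays, against 7.08, 7.65 and 7.04 in control arrays. No overexpressing array reached a control array, and the control arrays were spread widest. Ccl2 was 1.84-fold lower with Pax3 (-0.88 ± 0.15, limma adjusted p = 0.000644) and 2.28-fold lower with Pax7 (-1.19 ± 0.15, adjusted p = 5.67e-05). Ccl17, which attracts T cells through Ccr4, stood at 5.84, 5.71 and 5.85 in Pax3 arrays and 5.80, 5.86 and 5.98 in Pax7 arrays, against 6.79, 6.83 and 6.69 in control arrays. The control arrays lay above all others. The fall was 1.96-fold with Pax3 (-0.97 ± 0.062, adjusted p = 2.9e-07) and 1.85-fold with Pax7 (-0.89 ± 0.062, adjusted p = 4.29e-07).

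Cx3cl1, a chemokine anchored in the cell membrane, is the direct neighbour of Ccl17 among protein-coding genes in the RefSeq table, with Ccl22 on its other side. It stood at 7.41, 7.42 and 7.32 in Pax3 arrays and 7.61, 7.66 and 7.62 in Pax7 arrays, against 7.76, 7.82 and 7.94 in control arrays. The groups did not overlap, and Pax3 arrays were lowest. Cx3cl1 fell 1.38-fold with Pax3 (-0.46 ± 0.054, limma adjusted p = 3.89e-05) and 1.16-fold with Pax7 (-0.21 ± 0.054, adjusted p = 0.00741). Ccl22 did not pass, at 0.03 log2 units with each factor.

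Cxcl5, a CXC ligand that attracts neutrophils through Cxcr2, stood at 4.57, 4.58 and 4.70 in Pax3 arrays and 4.47, 4.75 and 4.66 in Pax7 arrays, against 4.93, 4.98 and 5.06 in control arrays. All control arrays were higher, with a log2 fold change of -0.37 ± 0.071 for Pax3 and -0.37 ± 0.071 for Pax7 (limma adjusted p = 0.00134 and 0.00137). Its relative Cxcl1 stood at 6.73, 6.78 and 6.97 in Pax3 arrays and 7.01, 7.12 and 6.98 in Pax7 arrays, against 7.04, 7.08 and 7.24 in control arrays. Cxcl1 fell with Pax3 (-0.30 ± 0.075, adjusted p = 0.00817), and its Pax7 arrays overlapped control (-0.09 ± 0.075, adjusted p = 0.399). Cxcl2 and Cxcl3, from the same gene cluster as Cxcl1, did not pass in either comparison, with log2 fold changes between -0.02 and 0.09.

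The ligand with the largest rise was Ccl5, which attracts T cells and monocytes. It stood at 6.95, 7.01 and 7.22 in Pax3 arrays and 6.75, 6.79 and 6.75 in Pax7 arrays, against 6.33, 6.56 and 6.30 in control arrays. The groups did not overlap, with Pax3 highest and control lowest. Ccl5 was 1.58-fold higher with Pax3 (0.66 ± 0.081, limma adjusted p = 5.29e-05) and 1.29-fold higher with Pax7 (0.36 ± 0.081, adjusted p = 0.00343). Ccl20, the ligand of Ccr6, stood at 5.98, 6.01 and 6.09 in Pax3 arrays and 6.19, 6.14 and 6.08 in Pax7 arrays, against 5.94, 5.75 and 5.82 in control arrays. It rose by 0.30 ± 0.057 with Pax7 (adjusted p = 0.00124) and by 0.19 ± 0.057 with Pax3 (adjusted p = 0.0221). The Pax3 call was lost without control replicate 2, control replicate 3 or Pax3 replicate 3 (adjusted p up to 0.095).

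Cxcl10, an interferon-induced ligand of Cxcr3, stood at 6.08, 6.11 and 6.42 in Pax3 arrays and 5.85, 5.78 and 5.60 in Pax7 arrays, against 5.82, 5.94 and 6.04 in control arrays. Pax3 replicate 3 was the highest of the 9. The rise with Pax3 (0.27 ± 0.099, limma adjusted p = 0.0491) was lost without any of 5 single arrays (control replicates 1 and 2, Pax3 replicate 3, Pax7 replicates 1 and 2; adjusted p up to 0.174) and was 0.16 without Pax3 replicate 3. With Pax7 the change of -0.19 ± 0.099 did not pass (adjusted p = 0.153). Ccl7, a monocyte attractant and the direct neighbour of Ccl2, stood at 7.17, 6.82 and 6.90 in Pax3 arrays and 6.66, 6.71 and 6.66 in Pax7 arrays, against 6.77, 6.77 and 6.60 in control arrays. Its rise with Pax3 (0.25 ± 0.084, adjusted p = 0.0346) was lost without any of 6 single arrays (control replicates 1 and 3, Pax3 replicate 1 and each Pax7 array; adjusted p up to 0.134) and was 0.15 without Pax3 replicate 1. The next genes in that cluster, Ccl11, Ccl12, Ccl8 and Ccl1, did not pass in either comparison.

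**Figure D4:**
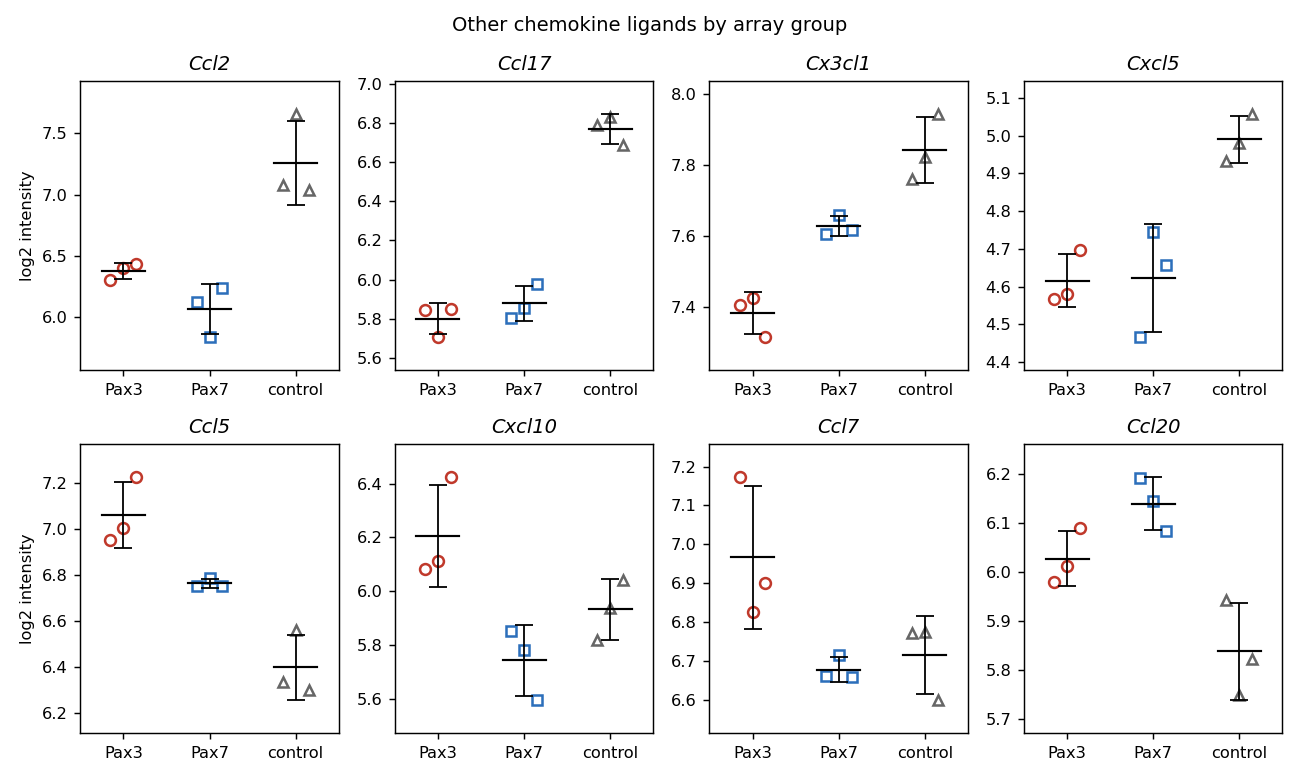
Log2 intensity (vertical axis, a separate range for each gene) of 8 ligand genes on each array; symbols are single arrays of the Pax3, Pax7 and control groups, horizontal lines group means and bars 1 SD (n = 3). In the upper row the control arrays lie highest; in the lower row Ccl5 lies above control in both overexpressing groups, and Cxcl10 and Ccl7 are highest in Pax3 arrays.

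The remaining calls were small. Cxcl16, a ligand anchored in the membrane, changed by -0.16 ± 0.051 with Pax3 (limma adjusted p = 0.031), which was lost without control replicate 2, control replicate 3, Pax3 replicate 2 or Pax3 replicate 3 (adjusted p up to 0.109). With Pax7, Ccl9 was at 0.19 ± 0.063, Cxcl17 at 0.18 ± 0.064, Cxcr3, the receptor of Cxcl10, at 0.25 ± 0.088, and Ccl25 at -0.19 ± 0.069 (adjusted p = 0.0352, 0.0465, 0.0434 and 0.049). These calls were lost without control replicate 1 (all 4), control replicate 2 (Ccl9, Cxcl17 and Cxcr3), control replicate 3 (Cxcr3 and Ccl25), Pax3 replicate 1 (Ccl25), Pax3 replicate 2 (Cxcl17), Pax7 replicate 1 (Cxcl17 and Cxcr3), or Pax7 replicate 2 or 3 (all 4), with adjusted p up to 0.178. Cxcr3 lies on chromosome X, and the part of the difference in sex-linked transcripts in its call was not tested. Ccl25, the ligand of Ccr9, was the member with more than 1 probe set. Its second probe set stood at 7.40, 7.50 and 7.10 in Pax3 arrays and 7.43, 7.40 and 7.35 in Pax7 arrays, against 7.74, 7.69 and 7.67 in control arrays. With both probe sets averaged, Ccl25 passed with Pax3 too (-0.22, adjusted p = 0.0226).

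Of 16 signalling receptors, Cxcr4 was the member called with Pax3, and Cxcr4 and Cxcr3 were called with Pax7. All of them but Cxcr4 lay in the lower 50% of genes, where 17.5% of all genes were called with Pax3 and 21.3% with Pax7. All 10 Ccr genes missed the threshold in all 3 comparisons, with log2 fold changes of -0.10 to 0.13 with Pax3 and -0.02 to 0.13 with Pax7. They include Ccr2 (-0.0045 with Pax3 and -0.0054 with Pax7), the receptor of Ccl2 and Ccl7, and Ccr4 (-0.04 and -0.01), the receptor of Ccl17. The atypical receptors Ackr1, Ackr2 and Ackr4 did not pass, at -0.04, 0.08 and 0.08 with Pax3 and 0.00, 0.06 and 0.09 with Pax7. A missed threshold does not show that these genes were unaltered, and the files give no detection call that would tell a silent gene from a low one.

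Set directly against each other, Pax7 and Pax3 arrays differed in 7 of the 53 members, 2 higher and 5 lower with Pax7, against a background of 16.9% of all genes, 8.33% higher and 8.54% lower. With each array centred on its median, 2 were higher and 3 lower (Ccl7 and Ackr3 were lost, adjusted p = 0.0614 and 0.07). The arrays of both groups did not overlap for 11 members, against 29.4% of all genes. Cxcl12 and Cxcr4, described above, made up the largest changes in each direction. Cxcl10 was 1.38-fold lower in Pax7 than in Pax3 arrays (-0.46 ± 0.099, limma adjusted p = 0.00775), and all 3 Pax7 arrays lay below all 3 Pax3 arrays. Cx3cl1 was 1.19-fold higher in Pax7 arrays (0.25 ± 0.054, adjusted p = 0.00945). Ccl5 (-0.30 ± 0.081), Ccl7 (-0.29 ± 0.084) and Ackr3 (-0.17 ± 0.049) were lower in Pax7 arrays (adjusted p = 0.0285, 0.0382 and 0.0428). Ccl5 was lost without Pax3 replicate 3 or any Pax7 array (adjusted p up to 0.0879). Ccl7 was lost without control replicate 1 or 2, Pax3 replicate 1 (where it was -0.19) or any Pax7 array (up to 0.114), and Ackr3 without any control array, Pax3 replicate 2 or 3, or Pax7 replicate 1 or 3 (up to 0.164). Ccl2 did not pass, at -0.31 with a 95% interval of -0.64 to 0.02, but did so without control replicate 2 (adjusted p = 0.0478). Cxcl1 did not pass (0.21, adjusted p = 0.0889) and did so without Pax3 replicate 3 (0.28, adjusted p = 0.0151). Ccl17 and Cxcl5 did not pass either, with intervals of -0.06 to 0.22 and -0.15 to 0.16.

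The 35 members past the threshold in neither comparison against control had log2 fold changes between -0.10 and 0.22 with Pax3 and between -0.13 and 0.16 with Pax7. Of 8 measured genes related to chemokines or their receptors whose names fall outside the rule, 7 lay in the lower 50% of genes, where the same 17.5% and 21.3% of all genes were called. Of them, the CXC ligands Pf4 and Ppbp, the receptor relatives Ccrl2 and Cmklr1, the Cmklr1 ligand Rarres2, and Cklf and Cd74 did not pass in either comparison, with log2 fold changes of -0.05 to 0.11. The receptor gene Gpr75 fell in both (-0.43 with Pax3 and -0.42 with Pax7). The receptor genes Cx3cr1 and Xcr1 also fall outside the rule, and their values are not given here.

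Of 32 measured genes of the signalling machinery below the receptors, 8 rose, 6 fell and 18 did not pass with Pax3, and 14 rose, 6 fell and 12 did not pass with Pax7, with median log2 fold changes of 0.01 and 0.06. The shares called were 43.8% and 62.5%, beside 39.6% and 43.2% of all genes. In the upper 50%, where 18 of the 32 lay, 61.7% and 65% of all genes were called. Gnai1, an inhibitory G protein alpha subunit, fell by 1.29 with Pax3 and by 0.54 with Pax7, while Gnai2 did not pass (-0.01 and 0.06). Gng2, a gamma subunit, was at -0.27 with Pax3 and -1.44 with Pax7, and the difference between Pax7 and Pax3 passed (-1.17, limma adjusted p = 9.69e-08). Pik3r5, a regulatory subunit of the PI3-kinase that G protein beta-gamma subunits activate, was at 1.44 and 1.43, Elmo1, which helps activate Rac, at 0.90 and 1.36, and Gng12 at 0.86 and 1.04. Of the genes that end the signal, Rgs4 (-1.05 and -1.02) and Rgs16 (-0.98 and -0.89), which speed up G protein shutdown, fell with both factors. Their relative Rgs5 fell too (-0.25 and -0.28). Rgs2 rose with Pax7 (0.75) and did not pass with Pax3 (-0.25), and Rgs1, Rgs3 and Rgs14 did not pass. The receptor kinase genes Grk5 (0.24 and 0.45) and Grk6 (0.29 and 0.60) rose with both factors, while Grk3 did not pass. The arrestin gene Arrb1 stood at 6.80 in Pax3 and 7.69 in Pax7 arrays, against 6.84 in control arrays, and passed with Pax7 (0.85) but not with Pax3 (-0.03), with a Pax7 minus Pax3 difference of 0.88 (adjusted p = 3.83e-06). Arrb2 fell in both (-0.42 and -0.34).

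Enzymes that cut chemokines and the proteoglycans that hold them at the cell surface gave 5 rises and 6 falls among 18 with Pax3, and 7 and 6 with Pax7. The membrane protease Mme rose by 3.64 with Pax3 and 3.10 with Pax7, and Mmp12 by 0.51 and 1.86. Mmp2, known to cut Cxcl12, was at -0.17 and -1.11. Dpp4, which also cuts Cxcl12, did not pass (0.03 and 0.03). Ext1, which builds heparan sulphate chains, was at -2.37 and -2.41, and the syndecan Sdc3 was at -0.60 and -0.95 while Sdc2 rose by 0.91 and 0.81.

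Genes of chemokine induction were chiefly cytokine receptors and NF-kappaB and interferon factors, with inhibitors of NF-kappaB such as Nfkbia and Tnfaip3 among them. They gave 13 rises, 7 falls and 17 not past among 37 with Pax3, and 16, 7 and 14 with Pax7. The interferon receptor genes Ifnar2 (1.30 with Pax3 and 1.56 with Pax7), Ifngr2 (0.78 and 1.09) and Ifnar1 (0.78 and 0.93) rose, as did the TNF receptor gene Tnfrsf1b (1.46 and 1.24) and the kinase gene Ikbke (0.76 and 1.2). Another interferon receptor gene, Ifngr1, did not pass in either comparison (-0.08 and 0.13). Nfkbia, the NF-kappaB inhibitor that NF-kappaB itself induces, fell by 1.01 and 0.73, while Tnfaip3, another inhibitor that NF-kappaB induces, rose by 0.77 and 0.71. The NF-kappaB subunit gene Rel was at -0.57 and -0.53, and that of Rela at 0.16 and 0.24, all past the threshold. Il1rap, the shared subunit of the interleukin-1 receptor, was at -0.56 and -1.02. Tnf, Il1a and Il1b, which encode cytokines upstream of that pathway, did not pass in either comparison, with log2 fold changes of -0.06 to 0.11. Among members with an NF-kappaB type match, Cxcl10 and Cxcl1 were called with Pax3, in opposite directions, and Cxcl2, Cxcl3, Ccl1 and Ccr3 were not called. The shares called were 61.1% and 72.2% of the protease and proteoglycan genes and 54.1% and 62.2% of the induction genes, beside the 39.6% and 43.2% of all genes. Of these lists, 13 of 18 and 26 of 37 genes lay in the upper 50%.

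**Figure D5:**
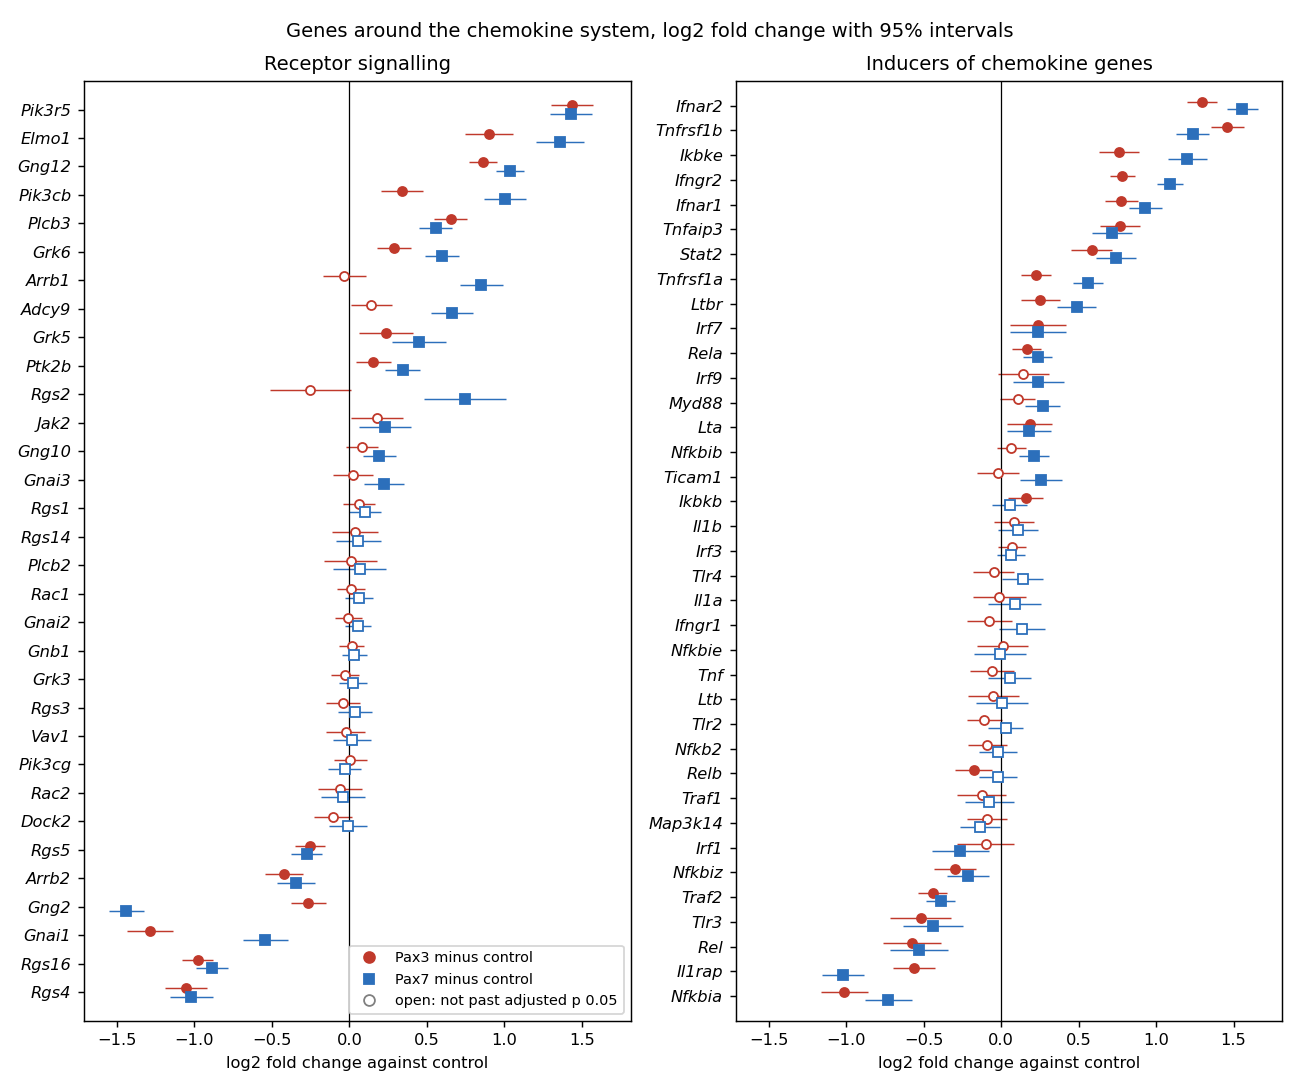
Log2 fold change against control (horizontal axis, log2 units) of 32 genes of chemokine receptor signalling and 37 listed as inducers of chemokine genes, NF-kappaB inhibitors among them. Red circles are Pax3 minus control, blue squares Pax7 minus control, bars 95% intervals and open symbols genes not past adjusted p 0.05. Pik3r5 and Ifnar2 stand at the top, Rgs4 and Nfkbia at the bottom, and for Arrb1 and Rgs2 the Pax7 point lies right of 0 and the open Pax3 point left of it.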

How the data were processed

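Per the labels' protocols, total RNA from myoblasts was labelled with biotin for Affymetrix arrays. The authors deposited log2 intensities per probe set, made by RMA in R 2.10.0 per the submitters' processing notes; the annotation version is not given in the sources used here. Of 25668 probe sets, 20777 had 1 symbol in the platform annotation, 232 several and 4659 none. Identifiers of all 53 members matched the RefSeq table of GRCm38.p6, with 0 symbols changed. RMA's median polish can give arrays identical values: 28 of 53 members and 42.9% of genes had a value shared by at least 2 arrays, which can narrow the measured spread.

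The 9 arrays entered 1 model with a mean for each group, fitted with limma 3.58.1 in R 4.3.3 (no trend, not robust; prior df 4.37), with Benjamini-Hochberg adjustment over 19661 genes. The threshold was 0.05. Errors are moderated standard errors, and intervals are 95%. The code was tested on simulated data.

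Members and lists were chosen with earlier results of these data known. Values were given for Cxcl13, Cxcl12, Cxcr4, members called against control with at least 0.3 log2 units, members called between Pax7 and Pax3, up to 6 called genes of each other list, and any other member needed to account for a family; other genes of the lists named here were chosen after their values were seen. Alternatives were other priors, filters, scalings, probe set averaging, a replicate block and leaving out each array.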

Additional observations from a re-analysis of the deposited data

How the results depend on the processing

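The limits are the 3 arrays per group, the missing detection calls, and the low signal of 47 of the 53 members. Of the 14 members called with Pax3, 10 remained called without each single array, of the 14 with Pax7, 10, and of the 7 between Pax7 and Pax3, 4. Leaving out 1 array gave 12 to 13 called members with Pax3, 10 to 14 with Pax7 and 4 to 7 between Pax7 and Pax3, where 4 remained without Pax7 replicate 1 or without Pax7 replicate 3. A minimum fold of 1.2 in limma's treat test gave 7 with Pax3 (Cxcl13, Cxcl12, Cxcr4, Ccl2, Ccl17, Cx3cl1 and Ccl5), 5 with Pax7 (Cxcl13, Cxcl12, Ackr3, Ccl2 and Ccl17) and 2 between Pax7 and Pax3 (Cxcl12 and Cxcr4). Counts under this and the other alternatives have no share of all genes beside them. Such counts cannot show whether members were called more or less often than other genes. Without the lowest 50% of genes, 6 members were tested and 5, 5 and 5 called; this filter removes Cxcl13, whose mean is low because 6 of 9 arrays are. Without genes below that limit in every group, an alternative chosen after seeing the data, 10 members were tested and 9, 8 and 7 called. Cxcl13 and Ccl2 passed that filter through the control arrays alone, and Ccl5 and Ccl7 through the Pax3 arrays alone. The filter thus picks genes partly by the difference then tested, so its counts give no support to the calls. With the replicate block, 14, 13 and 7 members were called, 13, 13 and 7 of them shared with the fit without it. The samples share only a number: deviations of same-numbered arrays correlated at -0.122 to 0.259. Cxcl10 with Pax3 (adjusted p = 0.0525) and Ccl25 with Pax7 (0.0657) were lost under the block. Of 912 refits of single members over the alternatives other than the minimum fold, 829 stayed called or stayed uncalled, 78 lost the call, 5 gained it and 0 reversed a call. A member uncalled in both fits could change sign within the 829, as Cxcl17 with Pax3 did (0.047 in the main fit and as low as -0.0002 without 1 array). Cxcl13, Cxcl12, Ccl2, Ccl17, Cx3cl1, Cxcl5 and Ackr3 against control and Cxcr4 in all 3 comparisons kept their calls under every alternative that tested them other than the minimum fold, which left Cxcr4 and Cx3cl1 with Pax7, Ackr3 with Pax3 and Cxcl5 with both uncalled. So did Ccl5 against control, Cxcl1 with Pax3, Ccl20 with Pax7, and Cxcl12, Cxcl10 and Cx3cl1 between Pax7 and Pax3. Of these, the minimum fold left all uncalled but Ccl5 with Pax3 and Cxcl12.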
